A study of Rattus norvegicus with 54 samples.

Results

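RT1 is the major histocompatibility complex of the rat, the cluster of genes whose products show peptides to T cells. Every gene of the count tables whose symbol starts with RT1- was taken, which gave 37 of the 13020 genes listed in either tissue. The lung table held all 37 among 12650 entries, of which 28 are class I and 9 class II by their names. The right ventricle table held 33 among 12199 entries, 25 of class I and 8 of class II; RT1-CE7, RT1-DMa, RT1-M1-2 and RT1-T24-2 have no ventricle values here. On the rn6 rat genome all but RT1-CE13, which lies on a chromosome 20 scaffold without a fixed place, sit on chromosome 20, from RT1-CE10 (starting at base 154657) to RT1-A1 (ending at base 5418012).

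Class I molecules are carried by nearly all nucleated cells, where a heavy chain binds beta-2 microglobulin and presents peptides cut inside the cell to CD8 T cells. RT1-A1 and RT1-A2 encode classical heavy chains, and the CE, M, N, S, O and T24 genes are further class I loci, many of them nonclassical. Class II molecules are dimers of an alpha and a beta chain that present peptides from endosomes to CD4 T cells. RT1-Ba and RT1-Bb encode the chains of RT1-B, and RT1-Da and RT1-Db1 those of RT1-D, while DM and DO molecules edit which peptides are loaded. B cells, dendritic cells and activated macrophages are the main class II carriers, and lung is rich in them.

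Both classes are transcribed from short promoters with shared boxes, and the stretches below are shown because they carry those boxes in the genes that the results turn on. They come from RefSeq promoters on GRCr8, from 250 bases before to 50 bases after each start, which matched 33 of the 37 genes. Capitals mark the Y box CTGATTGG in the class II genes and, ahead of it in RT1-Da and RT1-Db1, the X box, searched with any base where those 2 genes differ.
RT1-Bb: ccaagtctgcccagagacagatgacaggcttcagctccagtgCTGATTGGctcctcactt
RT1-Ba: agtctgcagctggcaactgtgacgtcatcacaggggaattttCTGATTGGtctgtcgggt
RT1-Da: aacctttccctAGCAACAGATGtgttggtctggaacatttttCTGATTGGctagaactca
RT1-Db1: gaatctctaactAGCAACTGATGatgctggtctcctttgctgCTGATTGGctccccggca
These lie on GRCr8 at chr20:4604165-4604224 (minus strand), chr20:4576969-4577028 (plus), chr20:4515321-4515380 (plus) and chr20:4560228-4560287 (minus). The Y box was found in 6 of 8 class II promoters, 9 of 25 class I promoters and 2.86% of all 33469 promoters, on either strand. The X box was found in 4 of 8 class II promoters, 0 of 25 class I promoters and 0.0448% of all. These 4 include RT1-Da and RT1-Db1, which set the open base of the search and so had to match, beside RT1-DOb and RT1-Db2.

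In the classical class I genes RT1-A1 and RT1-A2, and in the class I gene RT1-A3, capitals mark enhancer A and then the interferon response sequence. Both were searched with exactly these letters on either strand.
RT1-A1: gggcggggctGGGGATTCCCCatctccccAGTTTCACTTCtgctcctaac
RT1-A2: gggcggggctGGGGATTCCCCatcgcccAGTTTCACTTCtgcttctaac
RT1-A3: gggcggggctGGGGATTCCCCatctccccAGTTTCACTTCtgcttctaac
These lie on the plus strand of GRCr8 at chr20:4907073-4907122, chr20:4872687-4872735 and chr20:4849271-4849320. The RT1-A3 entry counted on rn6 lies at chr20:3775878-3796258 on the minus strand. Whether the RT1-A3 promoter shown belongs to that locus was not tested. The stretches of RT1-A1 and RT1-A3 differ at 1 of 50 bases. Enhancer A was found in 7 of 25 class I promoters, 0 of 8 class II promoters and 0.0508% of all, and the interferon response sequence in 8 of 25, 0 of 8 and 0.0598%. None of the 4 boxes, in the forms searched, was found in the window of RT1-CE2, whose counts are described below.

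RNA was sequenced from Sprague Dawley rats, an outbred strain, killed at 6 weeks of age. Altitude (H-H) rats were carried and raised in a low-pressure chamber set to 9000 feet, or 15% inspired oxygen, which their parents had entered at 7 weeks and mated in at 10 weeks. Room air (RA-RA) rats and their parents never entered it. Each treatment held 2 litters of both sexes, with 8 (3HH), 6 (4HH), 8 (4RARA) and 7 (6RARA) lung libraries and 8, 6, 7 and 4 right ventricle libraries. Litter is nested in treatment, so an effect of altitude and an effect of litter cannot be told apart, and p-values measure the spread between animals.

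Library totals ran from 1028679 to 23902634 counts in lung, the lowest being animal 6RARA66, and from 6116006 to 16326512 in ventricle. The tissue labels held: 5 alveolar type 2 markers summed to 18828 CPM (read counts scaled to a common library size) or more in every lung library, and 6 cardiac markers to 14888 CPM or more in every ventricle library. Some libraries stood apart. Lung 4HH37 held 11121 CPM of the cardiac markers and ventricle 4HH37 held 11510 CPM of the alveolar markers, while lung 4HH39 and 6RARA68 shared 106 of the 124 lung genes with a large gap between animals. The 4 ventricle libraries of litter 6RARA had RNA integrity numbers of 5.8 to 7.4 and 14888 to 23481 CPM of cardiac markers, against 34102 to 87458 CPM in the other ventricles. In whole tissue, fewer cells of a type and less RNA per cell cannot be told apart.

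Per kilobase of exon, RT1-Da led in lung with a median of 341 CPM per kilobase over the 29 libraries (lowest 218, highest 803). RT1-A2 followed at 247 (101 to 448), then RT1-Ba at 227, RT1-CE5 at 208, RT1-Db1 at 199, RT1-A1 at 136 and RT1-S3 at 105. The ranges of these neighbours overlapped. RT1-CE10 came next at 66.3, and the lowest member, RT1-T24-2, had a median of 0.0808 CPM per kilobase. In ventricle RT1-A2 led at 73.0 CPM per kilobase (30.2 to 269.6), before RT1-Da at 64.4, RT1-CE5 at 51.6, RT1-Ba at 44.7 and RT1-A1 at 43.8. RT1-S3 (42.7), RT1-T24-3 (40.6) and RT1-Db1 (38.04) came next, and these ranges overlapped too. The entries RT1-DMa and RT1-DMb each sum exons at 2 loci on opposite strands and stayed low, at up to 1.10 and 6.51 CPM in lung.

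RT1-Bb, the beta chain of RT1-B, was nearly absent in some room air animals and abundant in their littermates. It occupies chr20:4043726-4049367 on the plus strand of rn6 and its 6 exons span 1515 bases. In 23 of the 29 lungs it was read between 642 and 2493 times, or 46.5 to 163 CPM. In 3 animals of litter 4RARA it had 2 reads (animal 39), 3 reads (animal 43) and 3 reads (animal 45), or 0.101 to 0.172 CPM. In 3 animals of litter 6RARA it had 1 read (animal 66), 0 reads (animal 67) and 2 reads (animal 70). The lung of 6RARA66 was so shallow that 3 reads would be 2.92 CPM, whereas 0 reads in 6RARA67 allow up to 0.178 CPM.

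The gap between these animals and the next one was 5.04 on the log2(CPM + 0.5) scale. Lung values of the 8 animals of litter 3HH lay at 64.2 to 98.1 CPM (median 86.8), and those of the 6 animals of litter 4HH at 46.5 to 102 CPM (median 82.0). The 5 other animals of litter 4RARA lay within 104 to 110 CPM, and the 4 others of 6RARA within 68.7 to 163 CPM. So the low animals numbered 3 of 8 and 3 of 7 in the room air litters, and 0 of 8 and 0 of 6 in the altitude litters. No other gene of the lung table split the animals in this way, and RT1-Bb was the only RT1 gene among 37 with a gap of at least 2 that left at least 2 libraries on either side; 0.980% of all lung genes had one.

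The ventricle of the same animals gave the same sides. RT1-Bb had 0 reads in 4RARA39, 0 reads in 4RARA43 and 4 reads (0.328 CPM) in 6RARA67, and 6.52 to 32.5 CPM in the 22 other ventricles, a gap of 3.08. With 3 reads as the limit that 0 reads allow, these zeros permit up to 0.486 CPM in 4RARA39 and 0.212 CPM in 4RARA43, for counting error only. All 25 animals with both tissues fell on the same side in both, 3 low and 22 high, while 4RARA45, 6RARA66 and 6RARA70 had no ventricle library. In ventricle 0.205% of all genes had such a gap, and RT1-Bb was again the only RT1 gene.

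**Figure D1:**
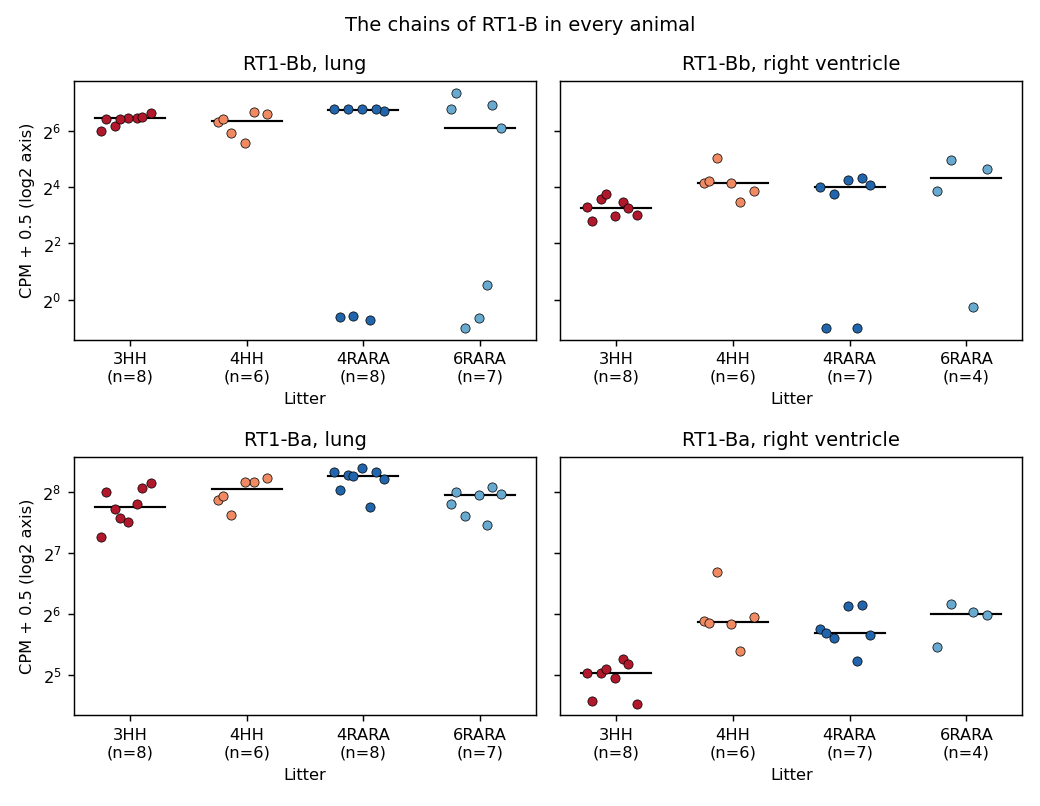
RT1-Bb (top) and RT1-Ba (bottom) in every library of lung (left) and right ventricle (right), as CPM + 0.5 on a log2 axis, by litter; points are animals and bars litter medians. In lung 3 animals of 4RARA and 3 of 6RARA sit below 1 CPM for RT1-Bb. For RT1-Ba they lie within the range over all litters.

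The partner chain showed no such gap in those animals. RT1-Ba lay at 213, 261 and 304 CPM in the lungs of 4RARA39, 4RARA43 and 4RARA45, and at 175, 194 and 246 CPM in 6RARA66, 6RARA67 and 6RARA70. All 29 lungs spanned 152 to 332 CPM for RT1-Ba, so these 6 lie inside the range. Beside their littermates high in RT1-Bb the picture was mixed. Those littermates had 294 to 332 CPM in 4RARA and 222 to 270 CPM in 6RARA. Animals 4RARA39, 4RARA43, 6RARA66 and 6RARA67 lay below them, and 4RARA45 and 6RARA70 lay within them. A count here is a read placed on the rn6 copy of a gene. Whether RT1-Bb is missing, silent or of a sequence that does not match that copy was not tested.

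**Figure D2:**
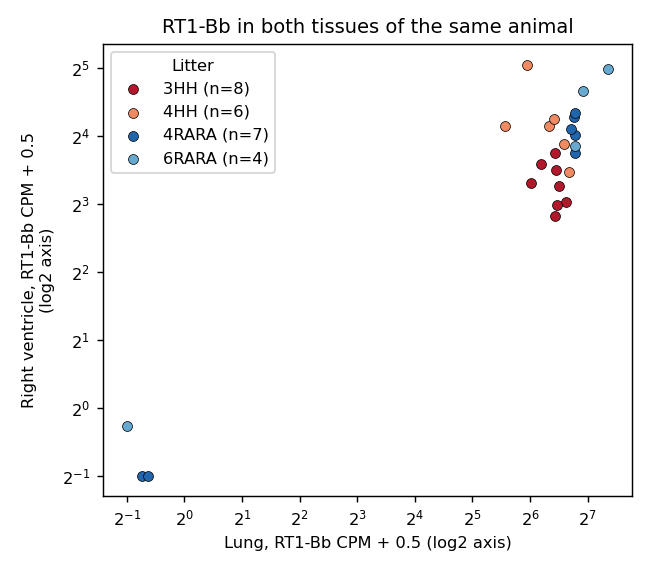
RT1-Bb in lung (x axis) and right ventricle (y axis) of the 25 animals with both libraries, as CPM + 0.5 on log2 axes, coloured by litter. The 3 animals at the lower left, 4RARA39, 4RARA43 and 6RARA67, are low in both tissues and the 22 others high in both.

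Between the treatments RT1-Bb differed by a log2 fold of 0.27 ± 0.70 (SE, 14 altitude and 15 room air animals) in lung, and of −0.07 ± 0.50 in ventricle. Neither passed, with adjusted p of 0.931 and 0.945 in edgeR's quasi-likelihood test. The standard errors of RT1-Ba in the same fits were 0.11 and 0.18.

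RT1-CE2, a class I gene at chr20:4771960-4774886 of rn6, formed steps within the litters. In the lungs of litter 4RARA 4 animals lay at 8.57 to 10.4 CPM (38, 40, 41 and 44) and 4 at 23.9 to 28.9 CPM (39, 42, 43 and 45). In litter 6RARA animals 65 and 71 lay at 8.31 and 5.44 CPM and the 5 others at 18.6 to 45.4 CPM. Litter 4HH was spread from 6.198 to 35.0 CPM, with 24.5, 27.7 and 35.0 CPM in animals 40, 33 and 39. Litter 3HH stayed within 3.79 to 10.7 CPM. A gap of at least 1 inside a litter was sought in genes with a litter maximum above 5 CPM. At least 2 animals lay on either side, and all on the high side exceeded 5 CPM. Of the RT1 genes searched, RT1-Bb and RT1-CE2 were found in both room air litters in lung, beside 0.225% of all genes searched in 4RARA and 0.915% in 6RARA. None of the RT1 genes searched had such a gap in 3HH or 4HH, where the shares of all genes searched were 0.381% and 0.997%. RT1 genes under the 5 CPM limit were not searched. Among those, RT1-S2 had 1.01 to 1.17 CPM in 4RARA animals 39, 42, 43 and 45, and 0.0687 to 0.451 CPM in their littermates. In 6RARA it had 0.0593 and 0.262 CPM in animals 65 and 71, and 1.19 to 3.21 CPM in the others. These are the RT1-CE2 sides, at low counts, and were not tested.

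RT1-A2, a classical class I heavy chain, was ordered with RT1-CE2 in lung. In litter 6RARA animals 65 and 71 had 285 and 288 CPM of RT1-A2 and the 5 others 521 to 699.6 CPM. In litter 4HH the 3 animals with the highest RT1-CE2 had 423 CPM of RT1-A2 or more, and the 3 others 326 CPM or less. In litter 4RARA the split was small: 442 CPM or more in the 4 animals high in RT1-CE2 and 433 CPM or less in the others. Litter 3HH gave the same order, 279 CPM or more in its 3 highest and 248 CPM or less in the rest. This pairing of genes was picked after their values were seen, and both values of an animal come from the same library. In ventricle the order was weaker: the highest RT1-CE2 animals were among as many highest in RT1-A2 in 1 of 3 cases in 3HH, 1 of 2 in 4HH, 1 of 2 in 4RARA and 2 of 2 in 6RARA.

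**Figure D3:**
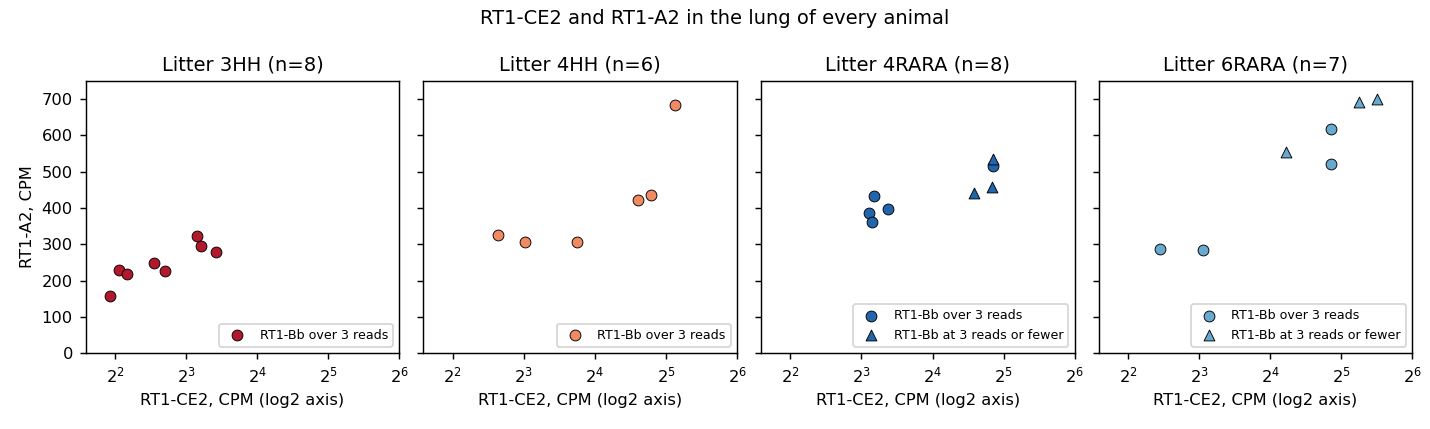
RT1-A2 (CPM, y axis) against RT1-CE2 (CPM, log2 x axis) in the lung of each animal, 1 panel per litter; triangles are animals with 3 reads of RT1-Bb or fewer. In 6RARA animals 65 and 71 stand apart at 285 and 288 CPM of RT1-A2, and all 6 triangles lie on the high side of RT1-CE2 in their litter.

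The steps of RT1-CE2 and RT1-Bb met in 3 combinations. All 6 animals low in RT1-Bb were on the high side of RT1-CE2, 3 in each room air litter. Animals high in both numbered 1 in 4RARA (42) and 2 in 6RARA (68 and 72), and animals high in RT1-Bb and low in RT1-CE2 numbered 4 and 2. No animal was low in both.

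In ventricle RT1-CE2 of litter 6RARA had 4.42 CPM (animal 65), 29.1 CPM (67), 6.50 CPM (71) and 21.5 CPM (72), the same sides as in lung. RT1-A2 there had 110 (65), 420.6 (67), 149.8 (71) and 359 CPM (72). In litter 4RARA ventricles 42 and 43 had 9.11 and 8.43 CPM of RT1-CE2 and the 5 others 2.79 to 3.91 CPM, so that 6 of 7 animals kept their side. The exception was 4RARA39, high in lung (28.4 CPM) and low in ventricle (3.16 CPM). Among all ventricle genes with a litter maximum above 5 CPM, a gap of at least 1 inside a litter was found in these shares. They were 1.96% (3HH), 0.164% (4HH), 0.202% (4RARA) and 0.520% (6RARA).

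RT1 transcripts were more abundant in lung than in ventricle, class II the more so. Over 31 RT1 genes tested in both tables, 27 were higher in lung and 0 lower, where 79.8% of all genes differed in one direction or the other (edgeR, adjusted p under 0.05). The median log2 fold was 1.93 for 7 class II genes and 0.96 for 24 class I genes, against 0.01 for all genes. Folds came from a joint fit of both tissues, whereas CPM and their overlap use values scaled within each tissue. RT1-Da had a median of 407 CPM in lung and 76.8 CPM in ventricle, a log2 fold of 2.04 ± 0.11, and RT1-Ba 254 and 50.0 CPM, a log2 fold of 1.94 ± 0.09; neither overlapped between the tissues, as in 10.7% of all genes. RT1-Db1 and RT1-DOa did not overlap either, and the low gene RT1-CE6 had the highest fold, 3.15 ± 0.20 (8.61 and 0.527 CPM).

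Genes outside RT1 that serve class II presentation moved with these counts. Ciita, the master coactivator of class II genes, was higher in lung by 2.26 ± 0.14, and 6 of 7 class II path genes were higher and Rfxank was lower. Of 13 class I path genes 11 were higher in lung and Psme1, a proteasome activator subunit, was lower. B cell markers summed to 49.6 to 156 CPM in lung (7 of 8 in the table) and to 2.54 to 20.4 CPM in ventricle (6 of 8). Dendritic cell markers summed to 43.2 to 96.7 and 21.4 to 47.8 CPM (6 of 7 each). Macrophage and monocyte markers summed to 16576 CPM or more in lung (7 of 7) and to 271 to 9946 CPM in ventricle (6 of 7), and no listed marker was at 0 in every library. All 6 B cell genes tested, 9 of 10 T and NK genes, 5 of 6 dendritic, 4 of 6 macrophage and 3 of 5 endothelial genes were higher in lung. Zbtb46 of the dendritic list and Cd163 of the macrophage list were lower. The part of these cells in the difference was not tested.

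The exceptions were class I genes, RT1-N3 and RT1-T18 being class Ib by name. RT1-N3, RT1-T18, RT1-T24-1 and RT1-T24-3 did not pass, with log2 folds of 0.03 ± 0.12, 0.04 ± 0.29, 0.00 ± 0.12 and −0.05 ± 0.21. By CPM scaled within each tissue, RT1-T24-3 was higher in lung in all 21 animals of 3HH, 4HH and 4RARA with both tissues. It was higher in ventricle in 4 of 4 animals of 6RARA. Those ventricles had 312 (65), 158 (67), 383 (71) and 426 CPM (72), beside 157, 70.3, 153 and 197 CPM in the lungs of the same animals. Where values are close, as in 3HH27 with 30.9 CPM in lung and 28.8 CPM in ventricle, the side can depend on the scaling. On this scale RT1-N3 also had medians of 34.9 CPM in lung and 24.7 CPM in ventricle, beside its fold of 0.03.

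In lung, altitude rats had more RT1-O1 than room air rats, and less of the class II chains RT1-Db1 and RT1-DOb and of RT1-A1 and RT1-M2. These 5 of 32 RT1 genes tested were called in edgeR at an adjusted p under 0.05, where 2.00% of all genes were. The median log2 fold was −0.27 for 25 class I genes, 21 of them below 0, and −0.40 for 7 class II genes, 6 of them below 0, against 0.02 for all genes. The treatments overlapped in every one of the 37 RT1 genes, and 0.0316% of all lung genes did not overlap.

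RT1-DOb, the beta chain of DO, had 4.56, 6.63 and 9.17 CPM (lowest, median and highest) in litter 3HH and 4.29, 5.52 and 10.1 CPM in 4HH. In room air it had 8.52, 11.7 and 16.2 CPM in 4RARA and 6.82, 10.9 and 12.5 CPM in 6RARA. Both room air medians lay above every 3HH and 4HH value while the ranges overlapped, and the log2 fold was −0.72 ± 0.15 (edgeR adjusted p = 0.00725). RT1-Db1, the beta chain of RT1-D, had 157, 198 and 256 CPM in 3HH, 183, 211 and 273 CPM in 4HH, 259, 299 and 322 CPM in 4RARA and 217, 242 and 290 CPM in 6RARA. Litter 4RARA lay wholly above 3HH, and 6RARA overlapped both altitude litters; the log2 fold was −0.40 ± 0.09 (edgeR adjusted p = 0.0172).

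RT1-A1, a classical class I heavy chain, had 126, 168 and 236 CPM in 3HH and 146, 185 and 284 CPM in 4HH. It had 208, 229 and 244 CPM in 4RARA and 206, 266 and 371 CPM in 6RARA, so the groups overlapped. The log2 fold was −0.47 ± 0.11 (edgeR adjusted p = 0.0147). RT1-M2, a class Ib gene of low level, had litter medians of 1.60 (3HH), 1.35 (4HH), 3.56 (4RARA) and 3.08 CPM (6RARA), a log2 fold of −1.08 ± 0.20 (edgeR adjusted p = 0.00291). RT1-O1, another class Ib gene of low level, went the other way (1.14 ± 0.28, edgeR adjusted p = 0.0272). Its litter medians were 3.19 and 2.75 CPM at altitude and 0.879 and 1.13 CPM in room air. Litter 6RARA was split: animals 66 (the shallow library), 67 and 70, low in RT1-Bb, had 3.72, 3.67 and 3.80 CPM. The other animals of 6RARA had 0.590 to 1.13 CPM. Litter 4RARA lay at 0.541 to 2.12 CPM, where animals low and high in RT1-Bb overlapped.

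**Figure D4:**
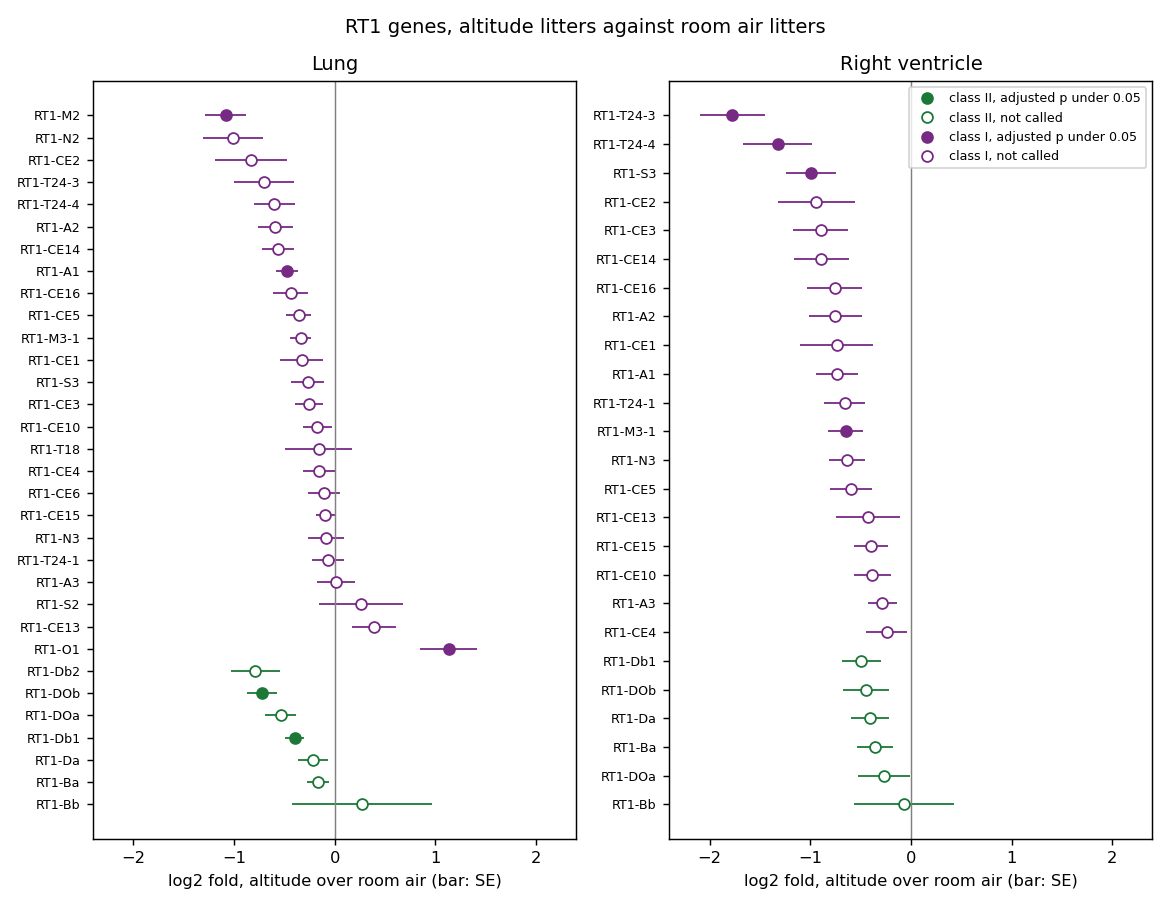
Log2 fold of altitude over room air (x axis; bars are SE) for each RT1 gene tested in lung (left) and right ventricle (right); filled points have an adjusted p under 0.05. In lung 27 of 32 and in ventricle 25 of 25 estimates lie below 0, and 5 and 4 are called.

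The other classical genes did not pass in lung. RT1-A2 had a log2 fold of −0.59 ± 0.17, with litter medians of 239 (3HH), 374 (4HH), 438 (4RARA) and 553 CPM (6RARA). RT1-Da had −0.22 ± 0.15, with 342, 383, 516 and 346 CPM, and RT1-Ba −0.17 ± 0.11, with 215, 264, 306 and 246 CPM. RT1-Db2 had −0.79 ± 0.24, with 1.88, 2.83, 3.64 and 2.62 CPM. In ventricle RT1-Db2 stayed at 0.134 to 1.86 CPM and was too low to be tested for altitude.

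The deposited run sheet gives each library a batch number, whose kind it does not state. Within batches 1 and 2 all 5 genes kept their direction and none passed; batch 3 held 1 altitude library in lung and 1 room air library in ventricle, too few for a fit. RT1-A1 had −0.57 in batch 1 and −0.43 in batch 2, RT1-DOb −0.64 and −0.66, RT1-Db1 −0.41 and −0.35, RT1-M2 −0.59 and −1.35, and RT1-O1 0.79 and 0.99. With litter as a random effect (limma voom) and with counts summed over each litter (edgeR) 0 of the RT1 genes passed; 11 and 6 had an unadjusted p under 0.05. Without the libraries that stand apart 13 passed, 12 of them lower at altitude, and RT1-A1 was not called without litter 6RARA (−0.35).

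The presentation machinery outside RT1 gave no call in lung: 0 of 13 class I path genes and 0 of 7 class II path genes passed in edgeR. The largest were Cd74, the class II invariant chain, at −0.44 ± 0.12 (edgeR adjusted p = 0.0517), and Psmb8, an immunoproteasome subunit, at −0.38 ± 0.19. Among leukocyte markers Pax5 (1 of 7 B cell genes) and Tbx21 and Prf1 (2 of 10 T and NK cell genes) were lower, and 0 of 6 dendritic and 0 of 6 macrophage genes passed. B cell markers summed to 53.1 to 103 CPM in 3HH, 49.6 to 134 in 4HH, 91.6 to 156 in 4RARA and 55.5 to 144 in 6RARA. Emcn was higher among 5 endothelial genes, and no alveolar, cardiac or liver gene passed. The part of these cells in the RT1 differences was not tested.

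In ventricle, altitude rats had less RT1-T24-3, RT1-S3, RT1-T24-4 and RT1-M3-1, all class Ib or further class I genes. These were 4 of 25 RT1 genes tested, where edgeR called 3.04% of all genes, and the median log2 fold was −0.63 against 0.02 for all genes. The treatments overlapped in all 33 RT1 genes of the table, and 0.0164% of all ventricle genes did not overlap. Their sizes were −1.77 ± 0.32 for RT1-T24-3 (edgeR adjusted p = 0.0104), −0.99 ± 0.25 for RT1-S3 (0.0334), −1.32 ± 0.34 for RT1-T24-4 (0.0384) and −0.65 ± 0.17 for RT1-M3-1 (0.0415). RT1-M3-1 is the rat counterpart of mouse H2-M3, which presents formylated peptides of bacteria.

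No call held without litter 6RARA, and none without litter 3HH (0 in edgeR, 4 at an unadjusted p under 0.05). With counts summed over each litter (edgeR) and with litter as a random effect (limma voom) 0 passed as well, with 2 and 5 at an unadjusted p under 0.05. RT1-S3 had ventricle medians of 81.0 (3HH), 120 (4HH) and 137 CPM (4RARA), and 321, 339, 337 and 409.7 CPM in animals 65, 67, 71 and 72 of 6RARA. RT1-M3-1 had medians of 10.4, 10.1 and 11.8 CPM in those 3 litters and 25.4 CPM in 6RARA, and RT1-T24-4 had 2.48, 2.57, 2.86 and 9.49 CPM. Without 6RARA the folds of RT1-T24-3, RT1-S3, RT1-T24-4 and RT1-M3-1 were −0.82, −0.28, −0.24 and −0.19, and 0 of 25 passed in edgeR (2 at an unadjusted p under 0.05). Without 4RARA 19 passed, all lower at altitude. In batches 1 and 2 RT1-T24-3 had −1.65 and −2.13, RT1-S3 −0.82 and −1.26, RT1-T24-4 −1.48 and −1.87, and RT1-M3-1 −0.67 and −0.84, with 0 passing in either.

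No path gene passed in ventricle (0 of 13 for class I, 0 of 7 for class II), with Psmb8 at −0.80 ± 0.24 (edgeR adjusted p = 0.0663). The endothelial markers Pecam1, Emcn and Cldn5 were lower, 3 of 5, and none of the B cell, dendritic, macrophage, T and NK, alveolar, cardiac or liver genes passed. Endothelial markers summed to 649 to 1548 CPM in the altitude litters and 4RARA together, and to 2333 to 3058 CPM in 6RARA. Their part was not tested.

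The difference between the tissues in the altitude contrast was tested within the 25 animals that gave both, in a model added after the data were seen. It passed for 12 of 33 RT1 genes, where 19.2% of all genes passed (edgeR). RT1-S3 differed by 0.79 ± 0.10 (edgeR adjusted p = 9.77e-06) and RT1-T24-3 by 0.89 ± 0.15 (edgeR adjusted p = 0.000171), both less negative in lung. This contrast weighted both litters of a treatment equally, so it includes the ventricles of 6RARA. For 4RARA minus 6RARA, lung minus ventricle was 1.40 ± 0.15 in RT1-S3 and 1.77 ± 0.22 in RT1-T24-3. The altitude difference between the tissues was not fitted without 6RARA.

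The litters of 1 treatment also differed from each other. In ventricle, 3 of 7 class II genes, RT1-Ba, RT1-Da and RT1-Db1, were lower in litter 3HH than in 4HH, and RT1-Bb, RT1-Db2, RT1-DOa and RT1-DOb did not pass. RT1-Ba had 22.7, 32.2 and 37.8 CPM (lowest, median and highest) in the 8 animals of 3HH and 41.4, 57.8 and 102 CPM in the 6 of 4HH, without overlap, as in 0.680% of all ventricle genes. Its log2 fold was −1.001 ± 0.14 (edgeR adjusted p = 0.00163). RT1-Da had 32.7, 54.4 and 58.7 CPM against 64.1, 83.4 and 176 CPM, again without overlap (−0.94 ± 0.17, edgeR adjusted p = 0.00904). RT1-Db1 had 23.5, 31.6 and 37.6 CPM against 36.2, 50.5 and 94.2 CPM (−0.84 ± 0.17, edgeR adjusted p = 0.0215).

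RT1-A2 and RT1-CE5 of class I followed. RT1-A2 had 47.1, 70.1 and 92.7 CPM in 3HH and 110, 132 and 190 CPM in 4HH (−1.04 ± 0.22, edgeR adjusted p = 0.0215), without overlap. RT1-CE5 had medians of 55.1 and 83.9 CPM (−0.67 ± 0.15, edgeR adjusted p = 0.0313). In all 5 of 29 RT1 genes passed, where 1.47% of all genes did, and RT1-CE2 missed the threshold at −1.31 ± 0.36 (edgeR adjusted p = 0.0599). Ventricle 4HH37, with its lung transcripts, was the highest of its litter for RT1-Ba, RT1-Bb, RT1-Da, RT1-Db1 and RT1-A2. Without it RT1-Ba, RT1-Da, RT1-Db1 and RT1-A2 still passed at −0.86, −0.76, −0.68 and −0.97, and RT1-CE5 did not (adjusted p = 0.0832).

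Beside these, Psmb8 was lower in 3HH ventricle (1 of 13 class I path genes, −0.78 ± 0.17), and 0 of 7 class II path genes passed. Cd68 and Lyz2 of 6 macrophage genes and Nkg7 and Prf1 of 10 T and NK genes were lower too. Macrophage markers summed to 271 to 527 CPM in 3HH and 467 to 9946 CPM in 4HH, and B cell markers to 2.54 to 6.59 and 3.08 to 20.4 CPM. Both highest values of 4HH were those of ventricle 4HH37, with its lung transcripts. The medians in 3HH and 4HH were 396 and 559 CPM for macrophage markers and 4.68 and 5.12 CPM for B cell markers. Their part was not tested.

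In lung the same litters differed in RT1-A2, RT1-CE2 and RT1-T24-1, all lower in 3HH. These were 3 of 35 RT1 genes, where edgeR called 4.11% of all genes. The litters overlapped in all 37 RT1 genes, and 1.66% of all lung genes did not overlap. RT1-A2 had 157, 239 and 324 CPM against 306, 374 and 684 CPM (−0.74 ± 0.21, adjusted p = 0.0411 in edgeR). RT1-CE2 differed by −1.52 ± 0.44 (adjusted p = 0.0468 in edgeR) and RT1-T24-1 by −0.68 ± 0.20 (adjusted p = 0.0473 in edgeR), with medians of 5.04 and 7.40 CPM. All 3 were lost without the libraries that stand apart, with 7 at an unadjusted p under 0.05. Cd2, Nkg7 and Prf1 of 10 T and NK genes and 4 of 6 cardiac genes were lower in 3HH too, and their part was not tested. The cardiac markers reached 11121 CPM in lung 4HH37, and their summed medians ran the other way, at 61.2 CPM in 3HH and 41.8 CPM in 4HH. None of 13 class I path and 7 class II path genes passed (0 called in edgeR). Class II gave no call (0 of 8), with RT1-Ba at −0.23 ± 0.14 and RT1-Da at −0.44 ± 0.19. In the test of the difference between tissues for this pair of litters 0 of 33 RT1 genes passed in edgeR, with RT1-Ba at 0.72 ± 0.19 (adjusted p = 0.197), where 0.0169% of all genes passed.

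Between the room air litters RT1-CE14 and RT1-T24-4 were lower and RT1-A3 higher in lung of 4RARA than of 6RARA. These 3 of 35 RT1 genes passed in edgeR, where 20.8% of all genes did. RT1-CE14 had medians of 71.3 CPM in 4RARA and 121 CPM in 6RARA (−0.72 ± 0.18, adjusted p = 0.00721 in edgeR) and RT1-T24-4 6.61 and 10.0 CPM without overlap (−0.77 ± 0.25, adjusted p = 0.0266 in edgeR; 12.5% of all lung genes did not overlap). RT1-A3 was the reverse, with 41.7 and 21.7 CPM (0.81 ± 0.23, adjusted p = 0.0121 in edgeR). Its values also followed the RT1-Bb sides within the litters. In 6RARA the low animals 66, 67 and 70 had 11.2, 10.8 and 12.8 CPM, and the others 21.7 to 39.1 CPM. In 4RARA the low animals had 33.5 to 36.7 CPM and the others 40.8 to 49.6 CPM. This split was not tested. The exons of RT1-A3 share 247 bases with those of RT1-CE16, and RT1-CE14 shares 917 bases with RT1-CE1, RT1-CE3, RT1-CE4 and RT1-CE7, so reads can be split between these genes. How reads that fit several genes were counted is not given in the sources used here. The path genes gave 0 calls of 13 and of 7, while 4 of 7 macrophage, 3 of 6 dendritic and 2 of 10 T and NK genes were higher in 4RARA, and B cell genes gave 2 higher and 1 lower of 7. Cldn5 of the endothelium was lower and Napsa of the alveolar list higher, and the part of these cells was not tested.

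In ventricle 20 of 29 RT1 genes differed between the room air litters, 19 of them lower in 4RARA, where edgeR called 59% of all genes in either direction, so the count itself is near the background. The median log2 fold was −1.19 for 22 class I genes and −0.03 for 7 class II genes, against −0.04 for all genes. Class I counts summed to 1326 to 2092 CPM in the 4 animals of 6RARA, and to 362 to 897 CPM in the 21 other ventricles.

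**Figure D5:**
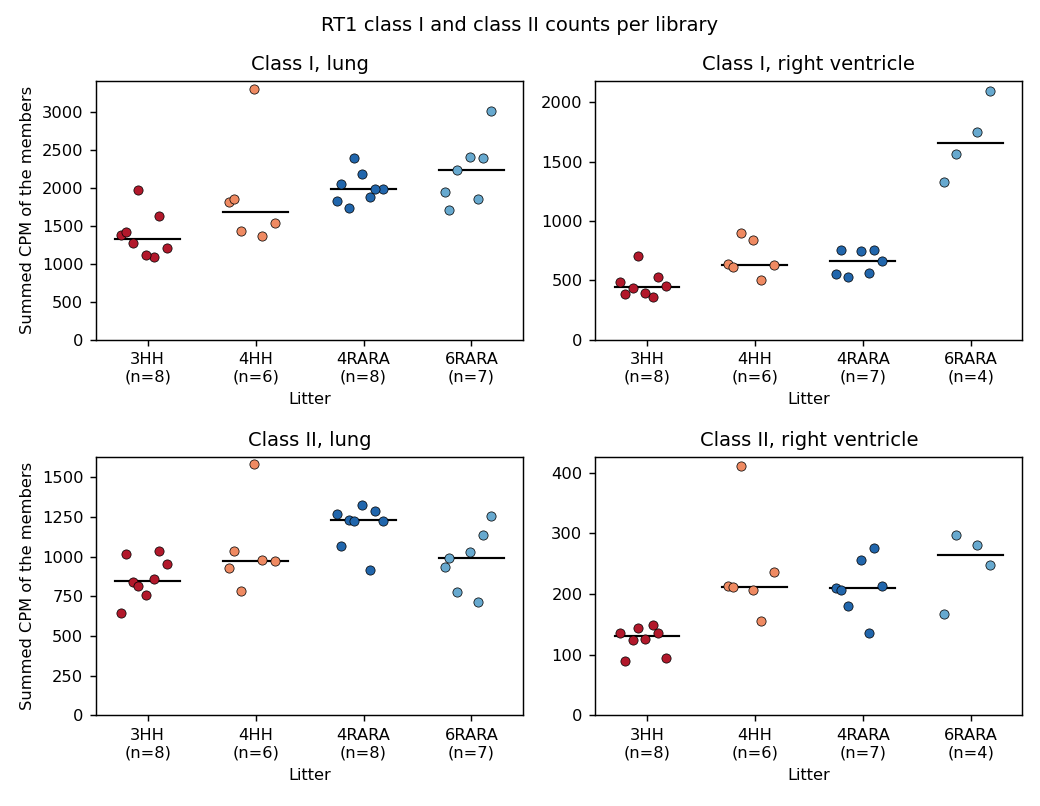
Summed CPM of the class I (top) and class II (bottom) RT1 genes per library of lung (left) and right ventricle (right), by litter; points are animals and bars medians. The 4 ventricles of 6RARA lie at 1326 to 2092 CPM for class I, above every other ventricle, and their class II sums of 168 to 297 CPM overlap the others.

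RT1-A1 had 54.2, 68.6 and 85.6 CPM in the 7 ventricles of 4RARA and 133, 177, 177 and 199 CPM in 6RARA (−1.29 ± 0.17, edgeR adjusted p = 6.42e-07). RT1-CE14 had a median of 25.8 CPM against 74.1, 78.1, 92.3 and 117 CPM (−1.87 ± 0.20, edgeR adjusted p = 1.79e-08). RT1-N3 had 23.3 CPM against 46.6, 56.4, 57.1 and 67.8 CPM (−1.21 ± 0.12, edgeR adjusted p = 1.12e-08). In these 3 genes the litters did not overlap, as in 13 of the 33 RT1 genes of the table; the share among all genes was 44.3%. RT1-T24-3 had 93.3 CPM in 4RARA and 347 CPM in 6RARA, RT1-CE3 6.90 and 23.9 CPM, and RT1-CE1 2.64 and 13.5 CPM, as medians.

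The other genes higher in 6RARA ventricle had these medians in 4RARA and 6RARA. RT1-A2 had 115 and 254 CPM, RT1-S3 137 and 338 CPM, RT1-CE5 82.99 and 169.6 CPM, and RT1-CE10 27.4 and 50.7 CPM. RT1-CE15 had 10.8 and 22.4 CPM, RT1-CE16 17.0 and 26.0 CPM, RT1-CE2 3.60 and 14.0 CPM, and RT1-CE4 11.1 and 20.6 CPM. RT1-M3-1 had 11.8 and 25.4 CPM, RT1-T24-1 4.43 and 7.25 CPM, RT1-T24-4 2.86 and 9.49 CPM, and RT1-T18 0.357 and 1.49 CPM. RT1-Db1 was the only class II gene among them, with 51.3 and 78.5 CPM. RT1-M2 alone was higher in 4RARA, with 0.808 and 0.375 CPM. RT1-Ba (−0.14 ± 0.16) and RT1-Da (−0.03 ± 0.19) did not pass. RT1-CE16 rested on animal 67, with a log2 fold of −1.24 ± 0.32 with it and −0.29 without it. Leaving out 1 ventricle of 6RARA in turn left 16 to 19 RT1 genes called, and RT1-CE4, RT1-Db1, RT1-M2 and RT1-T24-1 also lost the call in at least 1 case.

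The class I path showed the same direction in these ventricles: 11 of 13 genes were lower in 4RARA and 0 higher. Psmb9, an immunoproteasome subunit, differed by −1.67 ± 0.20, Tap1, a chain of the peptide transporter, by −1.54 ± 0.23, and B2m, the light chain of class I, by −0.79 ± 0.18. In the class II path 2 of 7 were lower and Cd74 (0.79 ± 0.16) and Lgmn (0.97 ± 0.17) higher in 4RARA. All 5 endothelial genes, all 3 liver genes and 2 of 5 alveolar genes were lower in 4RARA, and all 6 cardiac genes were higher. Cd79b and Pax5 of 6 B cell genes and Cd2, Prf1 and Tbx21 of 10 T and NK genes were lower, Cd4 and the macrophage gene Adgre1 were higher, and 0 of 6 dendritic genes passed. Their part, and that of RNA integrity, was not tested.

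The difference of this litter contrast between the tissues, within the same animals, passed for 20 of 33 RT1 genes, where 37.4% of all genes passed (edgeR). RT1-A1 differed by 1.04 ± 0.15 (edgeR adjusted p = 8.33e-06), RT1-CE1 by 1.77 ± 0.28 (edgeR adjusted p = 3.7e-05) and RT1-T24-3 by 1.77 ± 0.22 (edgeR adjusted p = 1.95e-06).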

How the data were processed

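Libraries from lung and right ventricle of the same rats were made with a KAPA mRNA kit and sequenced on a HiSeq4000, per the labels' protocols. Reads were aligned to rn6 with STAR 2.5 and counted per gene with featureCounts 1.5.1, per the submitters' processing notes. The authors deposited whole-number counts with gene lengths and a batch number for each library, of a kind the sheet does not state; how strand and multiply mapped reads were counted is not given in the sources used here. Other columns of the deposited tables were not used.

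Counts were scaled by TMM to CPM within each tissue, so CPM of lung and of ventricle are not on a joint scale. Tests were edgeR (4.0.16) quasi-likelihood fits over all genes with sex as covariate, after filterByExpr with a minimum count of 10, and Benjamini-Hochberg adjustment over all genes tested, called under 0.05. The fits were also run on simulated counts with planted folds, a fixed spread and no litter or batch effect. That check cannot speak to litter being nested in treatment. DESeq2 (1.42.0) and limma (3.58.1) were alternatives, with other scalings, filters and sets of libraries. A gap was the largest step between neighbouring animals in log2(CPM + 0.5), of at least 2, with at least 2 libraries on either side. Named were RT1 genes called in a treatment or litter comparison, those with a gap and the classical genes. The members, the path and marker lists and the tests were chosen with earlier results of these data known.

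Lung and ventricle samples with the same animal number come from the same rat by the labels; their deviations from the litter means correlated at 0.211 on average over 25 rats (19 over 0.1), against −0.031 for littermates. Equal numbers in different litters are different rats.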

Additional observations from a re-analysis of the deposited data

Results flagged for a closer look

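In 24 of 216 groups, each the libraries of 1 litter in 1 tissue for 1 gene, 1 animal stood far from its littermates, where chance gives about 1 in 20 groups, or 10.8. Lung 4HH39 was the highest of its litter in 9 genes: RT1-A2 (684 CPM), RT1-CE1 (27.2), RT1-CE5 (549.6), RT1-Da (958), RT1-M2 (3.62), RT1-M3-1 (45.7), RT1-N3 (112), RT1-S3 (646) and RT1-T24-3 (366). Ventricle 4HH37 was the highest in 5: RT1-A3 (22.6 CPM), RT1-Ba (102), RT1-Bb (32.5), RT1-Db1 (94.2) and RT1-M2 (0.538). These libraries also stood apart in the cell type markers, whose part was not tested.

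The remaining 10 were spread over other libraries. In lung they were RT1-M3-1 in 6RARA68 (63.3 CPM), RT1-O1 in 4RARA39 (2.12), RT1-T18 in the shallow 6RARA66 (7.44), RT1-T24-1 in 4RARA45 (9.60) and RT1-T24-3 in 3HH30 (154). In ventricle they were RT1-CE5 in 3HH30 (90.3 CPM), RT1-DOb in 6RARA71 (4.41), RT1-O1 in 6RARA67 (1.56) and RT1-T24-4 in 6RARA65 (18.5), all the highest of their litter, and RT1-T24-4 in 4RARA39 (1.30), the lowest.

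The altitude effect, with both litters of a treatment weighted equally and 6RARA included, differed between the tissues in 12 genes. Of these, 6 had been called for altitude in lung or ventricle, with differences, as lung minus ventricle on the log2 scale, for RT1-T24-3 (0.89), RT1-M3-1 (0.42), RT1-S3 (0.79), RT1-A1 (0.31), RT1-T24-4 (0.68) and RT1-O1 (1.69). The 6 others were RT1-DMb (1.65), RT1-T18 (1.52), RT1-CE14 (0.34), RT1-T24-1 (0.63), RT1-N3 (0.58) and RT1-CE3 (0.61). RT1-DMb had medians of only 0.477 CPM in lung and 0.226 CPM in ventricle, too low for the altitude test within either tissue. The difference 4RARA minus 6RARA also differed between the tissues in 20 genes. It did so for RT1-A1 (1.04), RT1-A2 (0.93), RT1-A3 (0.79), RT1-CE1 (1.77), RT1-CE2 (1.30), RT1-CE3 (1.36), RT1-CE4 (0.86), RT1-CE5 (1.13), RT1-CE10 (1.01) and RT1-CE14 (1.17). It did so too for RT1-CE15 (0.95), RT1-CE16 (0.97), RT1-Db1 (0.83), RT1-M3-1 (0.94), RT1-N3 (1.30), RT1-S3 (1.40), RT1-T18 (2.01), RT1-T24-1 (0.85), RT1-T24-3 (1.77) and RT1-T24-4 (1.26).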

How the results depend on the processing

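No called RT1 gene changed its direction under the alternatives run. For altitude in lung (5 called) the count was 3 with the batch number as covariate, 11 in DESeq2, 13 without the libraries that stand apart, 1 without litter 3HH and 9 without 4HH. It was 0 with counts summed over each litter (6 at an unadjusted p under 0.05), with litter as a random effect in voom (11), within batch 1 (5) and within batch 2 (10). For altitude in ventricle (4 called) it was 1 with batch as covariate, 11 in DESeq2, 10 without the libraries that stand apart and 19 without 4RARA. It was 0 without 3HH (4 at an unadjusted p under 0.05), without 6RARA (2), with litter sums (2), in voom (5), within batch 1 (2) and within batch 2 (13). For 3HH against 4HH in lung (3 called) DESeq2 gave 5, and edgeR gave 0 with batch as covariate (12 at an unadjusted p under 0.05), without the libraries that stand apart (7) and with only both litters in the fit (9). In ventricle (5 called) the last gave 2. For 4RARA against 6RARA in lung (3 called) DESeq2 and only both litters in the fit gave 6 each; in ventricle (20 called) leaving out 1 animal of 6RARA gave 16 to 19. With the animal as a replicate block, the pairing of lung with ventricle, 26 RT1 genes passed between the tissues, beside 27 without it; the other gene, RT1-S2, was not among the 29 tested with the block, so no call was lost to it. A gap of at least 1 added RT1-T24-4 in ventricle (2 genes). With a pseudocount of 2, RT1-Bb kept its gap in lung and no RT1 gene had one in ventricle. Gaps of at least 1 within 1 litter, sought only above the 5 CPM limit, gave 2 genes in lung, 3 in ventricle and 2 in both. The settings within a batch or within a litter were chosen after seeing the data, and the cause of these moves was not tested. Low counts limit RT1-T18, RT1-DMb, RT1-M2, RT1-O1, RT1-S2 and RT1-Db2, and the 1028679 counts of lung 6RARA66 limit every value of that library.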
